A study of Mus musculus with 2 samples.

Results

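The 10 genes described here carry or report bone morphogenetic protein (BMP) signalling: the ligands Bmp4 and Bmp7, the secreted inhibitor Nog (noggin), the receptors Bmpr1a and Bmpr2, the intracellular inhibitor Smad6, and the target genes Id1, Id2, Id3 and Msx2. They were taken by symbol from a table of 32285 mouse genes, and all 10 had unique molecular identifiers (UMIs, tags that let each captured RNA molecule be counted once) in both libraries. Their transcripts were counted in single cells of gastruloids, aggregates of mouse embryonic stem cells that begin to form a body axis in culture. The R1 embryonic stem cell line was used either as wild type or as a line with both transcription factor genes Sp5 and Sp8 disrupted (labelled Sp5/8 dko, also called double mutant). About 300 cells per aggregate were grown in N2B27, a medium without serum. CHIR, which switches on Wnt signalling by blocking the kinase GSK3, was given to both genotypes at 3 µM starting on day 2, and 12 hours later, at day 2.5, the aggregates were pooled. Each genotype is represented by 1 library of pooled gastruloids, and the number of knockout clones is not given in the sources used here.

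BMP ligands bind a complex of type I receptors such as Bmpr1a and type II receptors such as Bmpr2, and the active receptors phosphorylate Smad1, Smad5 and Smad9, which enter the nucleus with Smad4. Id genes, which encode inhibitors of basic helix-loop-helix transcription factors, are among the most direct targets, and Smad6 and Nog are feedback inhibitors that act inside and outside the cell. In the early embryo BMP signals from the extraembryonic ectoderm take part in setting up the primitive streak, where T (brachyury) and Eomes mark forming mesoderm and endoderm, while Irx3 is known from neural progenitors among other tissues.

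Sequence upstream of the start site is shown for the Id genes whose level differed between the libraries, because GC-rich elements bind both Sp factors and BMP-activated Smads. A RefSeq promoter window on GRCm38.p6 was found for 7 of the 10 members, all but Bmp7, Id1 and Nog, and the 250 bases before each start were searched on both strands. The letters GGGCGG, the core of the GC box, were present in all 7 windows and in 32.7% of 32851 windows of the same length. In the window of Id2 this match lies nearer the start site, in the part not printed below. The letters GGCGCC, a GC-rich Smad element, were present in 3 of the 7 (Id2, Bmpr2 and Bmpr1a) and in 9.59% of all windows. The shorter Smad element CAGAC was found in the window of Id3 alone, with 2 matches, and in 42.2% of all windows. The 7 windows were 61.6% to 78.8% G or C, and the windows they are set beside were not matched for this. The shares therefore do not show an excess of these elements beyond base content. Matches could overlap each other, and they describe letters in these windows, not binding.
Id2, chr12:25096254-25096342, minus strand, in an intron of the longer gene model, with the Smad element GGCGCC in capitals: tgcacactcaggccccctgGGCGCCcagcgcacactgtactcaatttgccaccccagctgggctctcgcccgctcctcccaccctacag
Id3, chr4:136143718-136143747, plus strand, in the 5′ UTR of the longer gene model, with 2 overlapping GC boxes in capitals: gcggtgcccaGGGCGGGCGGgggtggaccc

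Cells were barcodes with at least 2500 UMIs, at least 1000 genes and at most 10% mitochondrial UMIs. This left 8707 cells with 97157331 UMIs in the wild type-labelled library and 10587 cells with 97644169 UMIs in the double knockout-labelled library. The median cell was deeper in the former (10571 UMIs, 3275 genes) than in the latter (8637 UMIs, 2884 genes), and 27 kept barcodes occurred in both libraries (0.310% and 0.255% of their cells). The targeted genes went against the labels: Sp5 was at 109 counts per 1000000 UMIs (CPM) in the wild type-labelled library and 479 CPM in the double knockout-labelled library, and Sp8 at 20.8 and 40.1 CPM. Transcripts of a disrupted gene can still be counted, and where the deletion lies is not given in the sources used here, so every direction below is between the libraries as labelled. Primed epiblast markers summed to 1264 and 1385 CPM with 7 of 7 genes at 1 CPM or more in both libraries, primitive streak markers to 304 and 498 CPM (9 and 8 of 9 genes), and naive pluripotency markers to 74.6 and 61.1 CPM (7 and 6 of 9 genes). Extraembryonic endoderm markers summed to 14.0 and 13.05 CPM, trophoblast or extraembryonic ectoderm markers to 14.5 and 10.97 CPM, neural markers to 45.2 and 40.4 CPM, and no gene of these lists was at 0.

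With 1 library per genotype there was no test. Levels (CPM) are scaled to all UMIs of the kept cells, and brackets hold exact 95% intervals (Poisson for levels, binomial for shares, conditional for ratios) that reflect the error of counting alone and leave out any spread from culture to culture. Ratios between libraries are log2 values with the double knockout label over the wild type label, with 0.5 UMI added to each sum. A gene was called different between libraries at a log2 ratio of 0.25 or more in size (1.19-fold), and only if its mean level was at least 10 CPM. Since capture at the 3′ end differs between genes, levels are compared between samples and not between genes.

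Between the libraries, Bmp7 was higher and Id2 and Id3 were lower in the double knockout-labelled library. Of the 10 members, 6 passed the level minimum (Bmp7, Bmpr1a, Bmpr2, Id1, Id2 and Id3), of which 1 was called higher, where the background over 7607 genes was 3.13%, and 2 were called lower, where it was 4.67%. Bmp7, the member called higher, was at 8.47 and 13.5 CPM, so it met the minimum only through the library in which it was higher. Its call is therefore not independent of that filter. The median log2 ratio of the 6 was -0.10, against -0.02 over all genes at that level. The split of all genes depended on the scaling: with TMM factors, 4.35% were higher and 3.35% lower.

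Of the ligands, Bmp4, known for its role in mesoderm formation, gave 302 UMIs (3.11 CPM, 2.77 to 3.48) in the wild type-labelled library and 278 UMIs (2.85 CPM, 2.52 to 3.20) in the double knockout-labelled library. Its log2 ratio of -0.13 (-0.37 to 0.11) includes no difference. Bmp7, a ligand that can also pair with Bmp4, gave 823 UMIs (8.47 CPM, 7.90 to 9.07) and 1317 UMIs (13.5 CPM, 12.8 to 14.2). The intervals of Bmp7 did not overlap, and its log2 ratio was 0.67 (0.54 to 0.80). Of all genes at the level minimum, 99.8% had a lower ratio. When every cell was thinned at random to 2500 UMIs, the share of cells with a Bmp7 UMI was 2.08% (1.79 to 2.40) and 3.04% (2.72 to 3.39). Unthinned shares were 8.57% and 11.3%. In barcodes with 1 to 100 UMIs, which hold mostly free RNA, Bmp7 was at 5.31 CPM (28 UMIs) and 12.4 CPM (46 UMIs). Free RNA thus had the same order as the cells, and its part in the difference was not tested.

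Nog, which binds BMP ligands outside the cell, was close to the limit of detection, with 31 UMIs (0.319 CPM, 0.217 to 0.453) and 41 UMIs (0.420 CPM, 0.301 to 0.570). Every Nog UMI was in a cell of its own. The log2 ratio of 0.39 had an interval from -0.31 to 1.12. No Nog UMI was among the 5269228 and 3709403 UMIs of the barcodes with 1 to 100 UMIs.

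Neither receptor reached the threshold between libraries over all cells. Bmpr1a, a type I receptor, was at 37.1 CPM (35.9 to 38.3) in the wild type-labelled library and 33.9 CPM (32.7 to 35.1) in the double knockout-labelled library. Its log2 ratio of -0.13 (-0.20 to -0.06) excluded 0 but did not reach the threshold, and 20.5% of genes at the level minimum had a lower ratio. Bmpr2, the type II receptor, was at 16.9 CPM (16.1 to 17.7) and 16.1 CPM (15.3 to 16.9), with a ratio of -0.07 (-0.17 to 0.03). Bmpr1a and Bmpr2 each overlap another gene model, and whether the counting used strand is not given in the sources used here. Smad6, the inhibitor that blocks BMP Smads inside the cell, gave 166 UMIs (1.71 CPM) and 159 UMIs (1.63 CPM), a ratio of -0.07 (-0.39 to 0.25).

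The target genes went different ways. Id1 was at 22.6 CPM (21.7 to 23.6) and 22.7 CPM (21.8 to 23.7), and its interval limits any difference between these libraries to log2 ratios from -0.08 to 0.09. Id2 was at 27.0 CPM (25.9 to 28.0) in the wild type-labelled library and 18.8 CPM (18.0 to 19.7) in the double knockout-labelled library, a log2 ratio of -0.52 (-0.60 to -0.43). Id3 was at 161 CPM (159 to 164) and 134 CPM (132 to 136), a ratio of -0.27 (-0.30 to -0.23). The intervals of Id2 and of Id3 did not overlap between the libraries, and those of Id1 nearly coincided. Id3 was just past the threshold, and its ratio was -0.24 with TMM factors and -0.19 with each cell thinned to 2500 UMIs. It was -0.22 with each class of cells given the same share of UMIs in both libraries (its mean share). All 3 were short of the threshold. The ratio of Id2 under the same settings was -0.49, -0.50 and -0.38.

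Msx2, a homeobox target of BMP signalling, gave only 100 UMIs (1.03 CPM) and 87 UMIs (0.891 CPM), a ratio of -0.21 (-0.64 to 0.22). In thinned cells a UMI of Id3 was found in 30.5% (29.6 to 31.5) and 27.2% (26.4 to 28.1), one of Id2 in 5.78% (5.30 to 6.29) and 4.13% (3.76 to 4.52), and one of Id1 in 5.18% (4.72 to 5.67) and 5.23% (4.82 to 5.67). Without thinning those shares were 69.4% and 60.1% for Id3, 19.7% and 12.9% for Id2, and 17.6% and 15.8% for Id1. The order of Id1 thus turned with thinning, as the unthinned share follows the depth of the cells. Free RNA held Id3 at 188 and 146 CPM, Id2 at 22.0 and 16.7 CPM and Id1 at 26.9 and 25.6 CPM. These levels are close to those in the cells. They come from 885099 and 892271 barcodes, which in all held 988 and 543 UMIs of Id3. Of Id2 these barcodes held 116 and 62 UMIs, and of Id1 142 and 95. How many of the Id UMIs in cells came from free RNA was not tested.

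**Figure D1:**
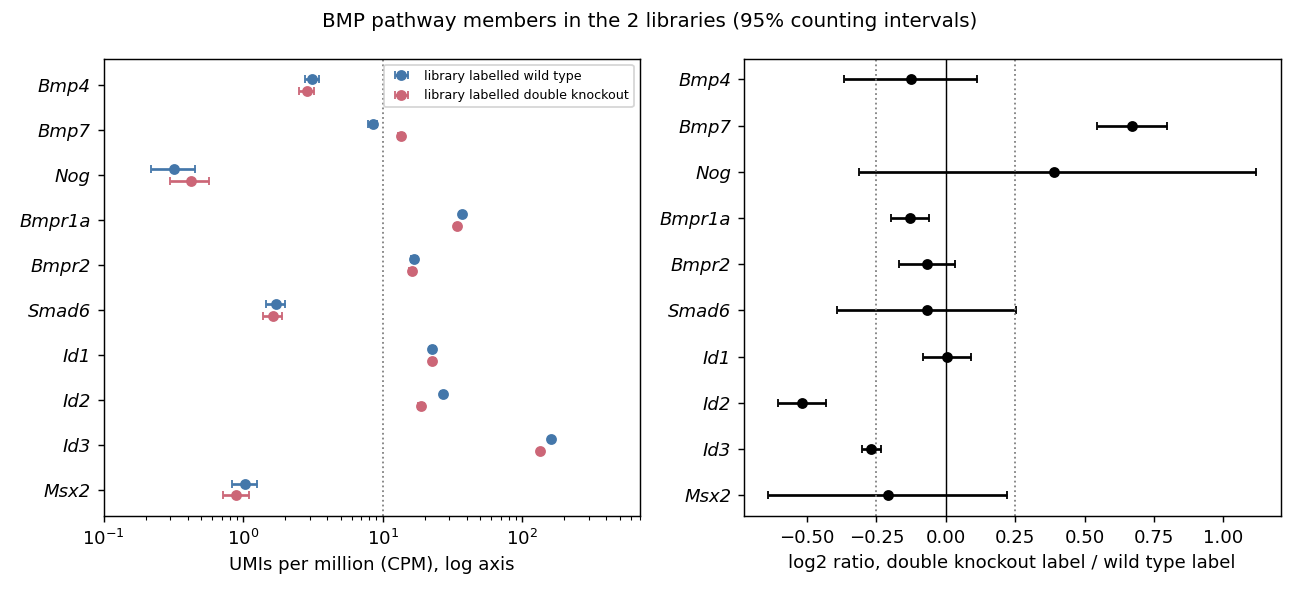
Level of the 10 members in each library (left, CPM on a log axis, dotted line at 10 CPM) and log2 ratio of the double knockout label over the wild type label (right, dotted lines at -0.25 and 0.25). Points are library values and bars are exact 95% counting intervals; Bmp7 lies to the right of the upper line at 0.67, Id2 and Id3 to the left of the lower line, and Id1 at 0.00.

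Around these members, 59 other genes of the pathway had been listed by role, of which 17 passed the level minimum. Of these, 1 was called higher and 4 were called lower, beside the 3.13% and 4.67% of all genes given above. The one higher was Smad7, an intracellular inhibitor shared with the TGF-beta pathway, at 54.0 and 81.2 CPM (log2 ratio 0.59, 0.54 to 0.64). Among the lower were 2 co-receptors of the RGM family, Rgma at 18.7 and 12.0 CPM (-0.64, -0.75 to -0.54) and Rgmb at 12.6 and 9.08 CPM (-0.47, -0.59 to -0.34). Rgmb, too, met the level minimum only through the library in which it was higher. Bambi, a pseudoreceptor that dampens signalling and is itself a BMP target, was at 22.3 and 16.7 CPM (-0.42, -0.51 to -0.32), and Tob1, a repressor of BMP Smads, at 22.0 and 16.9 CPM (-0.38, -0.47 to -0.29). Rgma overlaps other gene models on both strands.

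No ligand, signal transducer, extracellular inhibitor or further target of that list was called, of 1, 3, 3 and 1 that passed the minimum. Roles are those given in the list. Of its 12 targets only Zfp423 could be called, so this says little about BMP targets as a group. Those with the most UMIs in each role were Gdf3 (11.4 and 12.6 CPM), Smad4 (100.3 and 100.2 CPM), Fst, encoding follistatin (307 and 336 CPM), and Zfp423 (46.4 and 40.4 CPM). The receptor and the intracellular inhibitor with the most UMIs were Acvr2b (51.8 and 55.0 CPM) and Ski (71.3 and 73.4 CPM). Their log2 ratios ran from -0.20 to 0.14. Among pathway genes at the level minimum, Bmp7 and Smad7 were thus called higher, and Id2, Id3, Rgma, Rgmb, Bambi and Tob1 lower. Some listed genes under that minimum, targets among them, also had ratios past the threshold, in both directions, with intervals that exclude 0. They were not called because of their level, which does not show that they were unchanged.

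**Figure D2:**
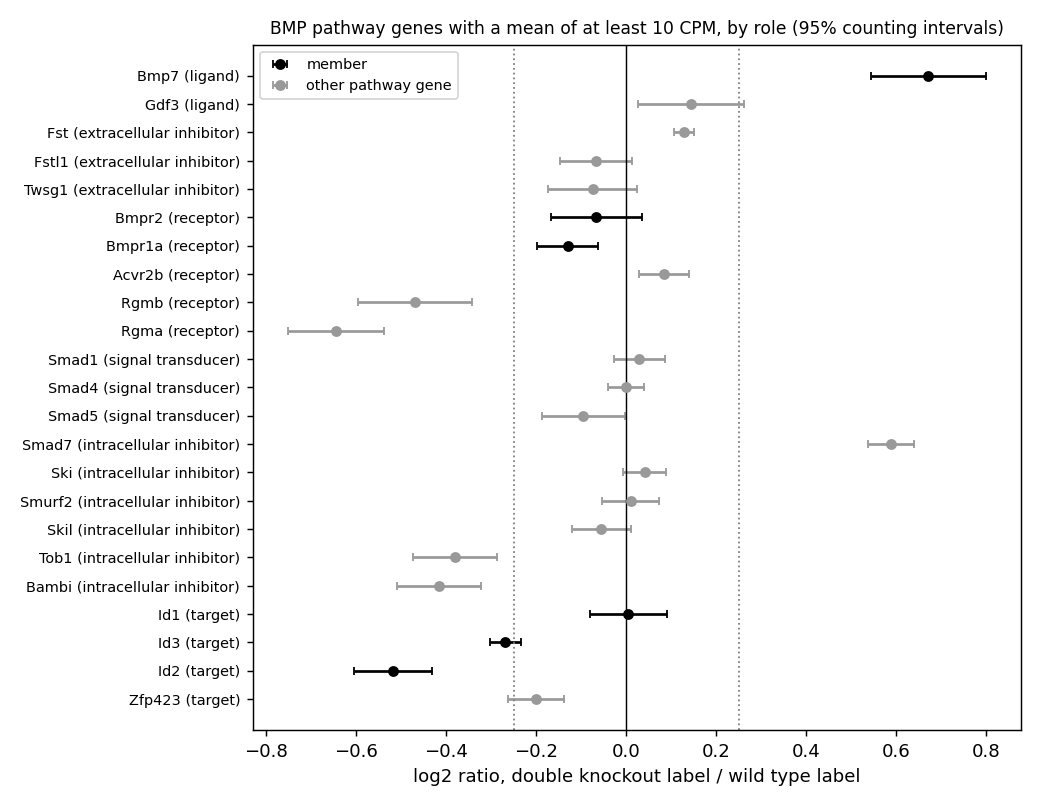
Log2 ratio of the double knockout label over the wild type label for the 6 members (black) and 17 other BMP pathway genes (grey) with a mean of at least 10 CPM, grouped by role, with 95% counting intervals and dotted lines at -0.25 and 0.25. Bmp7 and Smad7 lie to the right of the line at 0.25, and Id2, Id3, Rgma, Rgmb, Bambi and Tob1 to the left of the line at -0.25.

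Cells were next divided by T, Eomes and Irx3, each called positive with at least 1 UMI after thinning to 2500 UMIs, so that depth did not set the class. T-positive cells numbered 676 (7.76%, 7.21 to 8.35) in the wild type-labelled library and 1160 (10.96%, 10.4 to 11.6) in the double knockout-labelled library. Eomes-positive cells numbered 1443 (16.6%, 15.8 to 17.4) and 3369 (31.8%, 30.9 to 32.7). Irx3-positive cells numbered 396 (4.55%, 4.12 to 5.01) and 224 (2.12%, 1.85 to 2.41). Without thinning the shares were 26.0% and 29.3% for T, 43.4% and 61.8% for Eomes, and 15.5% and 6.21% for Irx3. As a background for T, cells with all-UMI marks of naive pluripotency held a thinned T UMI in 0 of 55 cells and in 1 of 26 cells (median depths 11837 and 8763 UMIs). The count of 0 allows a share of roughly 5.45%, taken as 3 cells of 55 and not as an exact interval. The same cells held a thinned Eomes UMI in 4 of 55 (7.27%) and 1 of 26 (3.85%), and an Irx3 UMI in 0 of 55 and 1 of 26. The share of 3.85% for Irx3 in the double knockout-labelled library is not below its share in all cells, but rests on 1 cell. Free RNA held T at 31.1 and 36.4 CPM, Eomes at 56.7 and 123 CPM and Irx3 at 26.6 and 11.9 CPM. A positive cell is thus one with a captured molecule, and negative cells include cells that express the gene. Within each library, a member was called in a class at a log2 ratio of 0.5 or more in size between positive and negative cells. Of the members, 5 passed the level minimum in the wild type-labelled library and 6, with Bmp7, in the double knockout-labelled library. Their median log2 ratio was -0.04 and -0.12 for T, -0.22 and -0.13 for Eomes, and 0.38 and 0.25 for Irx3, while that of all genes at this level was from 0.01 to 0.02.

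Id2 was called in all 3 classes of both libraries: it was lower in T-positive and in Eomes-positive cells and higher in Irx3-positive cells, in both libraries. T-positive cells of the wild type-labelled library held Id2 at 15.2 CPM (12.6 to 18.1) and T-negative cells at 28.0 CPM (26.9 to 29.1), a log2 ratio of -0.88 (-1.16 to -0.62). With the double knockout label the levels were 12.4 CPM (10.48 to 14.7) and 19.7 CPM (18.7 to 20.6), a ratio of -0.66 (-0.92 to -0.41). Id2 was the only member of those tested that was called lower, against a background of 0.262% and 0.224% of genes, and no member was called higher (0.485% and 0.25% of genes). Id2 was also lower with more T molecules per cell: at 0, 1 and 2 or more thinned T UMIs it was at 28.0, 15.7 and 11.3 CPM in the wild type-labelled library, and at 19.7, 12.6 and 11.5 CPM in the double knockout-labelled library. The intervals of the upper pair of bins overlapped in both.

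Id3 in T-positive and T-negative cells was at 146 and 163 CPM (ratio -0.16, -0.25 to -0.07) in the wild type-labelled library. It was at 120 and 136 CPM (ratio -0.17, -0.26 to -0.09) with the double knockout label. These ratios did not reach the threshold, and that of the wild type-labelled library turned to 0.04 when thinned UMIs were counted. Id1 gave ratios of 0.06 (-0.17 to 0.27) and -0.25 (-0.46 to -0.05) in T-positive cells, and Bmpr2 gave 0.15 (-0.11 to 0.39) and 0.24 (0.02 to 0.45). Bmpr1a gave -0.04 and -0.07 and Bmp7 gave -0.24 and 0.13, with intervals that include 0. Among members at the level minimum, no ratio other than that of Id2 reached the threshold in T-positive cells. Nog, under the minimum, gave 1.20 (-0.65 to 2.49) from 5 and 26 UMIs and 0.95 (-0.44 to 2.03) from 8 and 33 UMIs.

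Eomes-positive cells also held less Id2. Its levels in the wild type-labelled library were 15.4 CPM (13.6 to 17.3) in positive and 29.4 CPM (28.2 to 30.6) in negative cells, a ratio of -0.93 (-1.13 to -0.75). The library labelled double knockout gave 14.6 CPM (13.3 to 15.98) and 20.9 CPM (19.8 to 22.1), a ratio of -0.52 (-0.67 to -0.37). Between libraries the intervals of positive cells overlapped and those of negative cells did not. Id2 was again the member called lower in both, against 0.433% and 0.145% of genes, with no member called higher (0.315% and 0.211% of genes). In the double knockout-labelled library this call was lost when cells low on chromosome 11 or 6, described further on, were left out (ratio -0.44).

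Along the number of Eomes UMIs (0, 1 and 2 or more), Id2 was at 29.4, 16.4 and 11.3 CPM in the wild type-labelled library and at 20.9, 15.5 and 12.5 CPM with the double knockout label. The step from 0 to 1 UMI was outside the counting intervals in both libraries. Id3 was at 137 and 166 CPM in Eomes-positive and Eomes-negative cells of the wild type-labelled library (ratio -0.28, -0.34 to -0.21), and at 120 and 141 CPM with the double knockout label (-0.23, -0.28 to -0.17). Id1 gave ratios of -0.22 (-0.39 to -0.05) and -0.22 (-0.36 to -0.09), and turned to 0.05 in the double knockout-labelled library when 2 Eomes UMIs were required. Bmp7, Bmpr1a and Bmpr2 gave ratios from -0.04 to 0.20, all with intervals that include 0.

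Irx3-positive cells had more of all 3 Id genes. Id1 was at 30.1 CPM (25.2 to 35.8) in positive and 22.3 CPM (21.3 to 23.3) in negative cells of the wild type-labelled library, a ratio of 0.44 (0.17 to 0.69). It was at 36.3 CPM (28.4 to 45.7) and 22.4 CPM (21.5 to 23.4) with the double knockout label, a ratio of 0.70 (0.33 to 1.03). Id2 was at 42.3 CPM (36.4 to 48.9) and 26.2 CPM (25.2 to 27.3) in the wild type-labelled library (0.69, 0.47 to 0.91), and at 39.3 CPM (31.1 to 49.1) and 18.4 CPM (17.5 to 19.3) with the double knockout label (1.10, 0.75 to 1.42). Id3 was at 207 and 159 CPM (0.38, 0.28 to 0.48), and at 160 and 133 CPM (0.27, 0.10 to 0.43). All of these intervals exclude 0, and the share of all genes for which this holds was not counted. Among genes at the level minimum, 98.5% and 99.1% had a lower ratio than Id1 in the 2 libraries. For Id2 these shares were 99.7% and 99.9%, and for Id3 97.6% and 87.2%. The ratios of Id3 did not reach the threshold.

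The members called higher were Id2 in the wild type-labelled library, where 0.943% of genes were called higher, and Id1 and Id2 in the double knockout-labelled library, where 3.12% were. None was called lower (1.06% and 2.15% of genes). Id1 in the wild type-labelled library passed the threshold when cells low on chromosome 11 or 6 were left out (0.56), and fell to 0.14 when cells were thinned to 5000 UMIs. With 1 Irx3 UMI, Id2 was at 41.0 CPM (34.9 to 47.8) in 362 cells of the wild type-labelled library, and with 2 or more at 56.8 CPM (35.2 to 86.8) in 34 cells. Bmp7 was lower in Irx3-positive cells, at 6.44 against 8.57 CPM and 9.58 against 13.6 CPM, but with only 28 and 19 UMIs the intervals of its ratios (-0.39, -1.01 to 0.13, and -0.47, -1.24 to 0.15) include 0. Summed neural markers in Irx3-positive cells without T or Eomes were at 50.5 and 42.6 CPM, against 46.2 and 42.4 CPM in cells with none of the 3 genes. Primitive streak markers were lower in the Irx3 class, at 101 against 222 CPM and 158 against 332 CPM. Surface ectoderm or amnion markers were at 67.3 against 45.4 CPM and 39.4 against 46.4 CPM. The part of these marker differences in the Id levels was not tested.

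**Figure D3:**
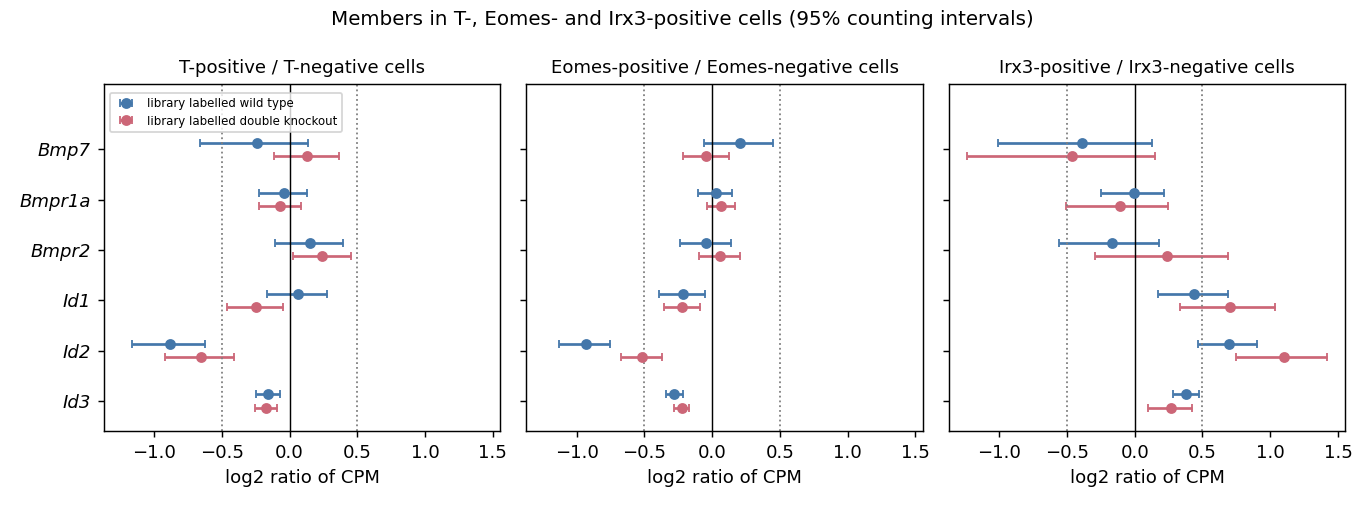
Log2 ratio of CPM in positive over negative cells for T, Eomes and Irx3 (3 panels) in the wild type-labelled library (blue) and the double knockout-labelled library (red), with 95% counting intervals and dotted lines at -0.5 and 0.5. Id2 lies left of the lower line for T and Eomes and right of the upper line for Irx3 in both libraries. The points of the receptors lie between the dotted lines throughout, the furthest from 0 being Bmpr2 for T with the double knockout label (0.24).

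To ask whether the difference between libraries lay in the make-up of the classes, the libraries were compared within 5 exclusive classes: cells with T and Eomes (214 and 501 cells), T only (462 and 659), Eomes only (1229 and 2868), Irx3 without T or Eomes (345 and 175) and none of the 3 (6457 and 6384). Bmp7 was at 6.86, 7.38, 9.96, 6.68 and 8.41 CPM in these classes of the wild type-labelled library, in that order. In the double knockout-labelled library it was at 13.6, 15.4, 13.2, 9.69 and 13.5 CPM. Every class was higher in the latter, with log2 ratios of 0.95 (0.22 to 1.82), 1.05 (0.51 to 1.63), 0.40 (0.12 to 0.69), 0.55 (-0.49 to 1.52) and 0.69 (0.53 to 0.84). Only the interval of the Irx3 class, with 25 and 15 UMIs, includes 0.

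Id3 was lower in each of the 5 classes of the double knockout-labelled library. It was at 136, 150, 137, 213 and 165 CPM in the wild type-labelled library and at 117, 123, 121, 172 and 142 CPM with the double knockout label. The ratios ran from -0.31 to -0.18 and none of the intervals includes 0. How many of all genes had such intervals in these classes was not counted. Id3 was thus highest in the Irx3 class in both libraries.

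The difference of Id2 was found in cells with none of the 3 genes, at 29.4 CPM (28.1 to 30.7) and 21.3 CPM (20.1 to 22.5), a ratio of -0.47 (-0.57 to -0.36). In the other classes Id2 was at 10.7 and 11.6 CPM (T and Eomes), 17.3 and 13.1 CPM (T only), 16.2 and 15.2 CPM (Eomes only), and 47.6 and 40.0 CPM (Irx3). The intervals of those 4 ratios include 0 and do not show the absence of a difference, since the classes hold from 28 to 416 Id2 UMIs per library. Within the wild type-labelled library Id2 thus ranged from 10.7 to 47.6 CPM, with the Irx3 class above every other and the T and Eomes class below the cells with none of the 3.

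Id1 had the opposite signs in 2 small classes. With T and Eomes it was at 26.3 CPM (20.4 to 33.3) and 17.7 CPM (14.2 to 21.7), a ratio of -0.57 (-1.04 to -0.10). In the Irx3 class it was at 27.8 CPM (22.7 to 33.7) and 40.7 CPM (31.3 to 52.0), a ratio of 0.55 (0.07 to 1.01). These rest on 69 and 90, and 104 and 63 UMIs, and in cells with none of the 3 the ratio was 0.04 (-0.06 to 0.15). Among the remaining members, Bmpr1a in cells with none of the 3 was the only one with an interval that excludes 0 in any class (-0.14, -0.22 to -0.05).

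**Figure D4:**
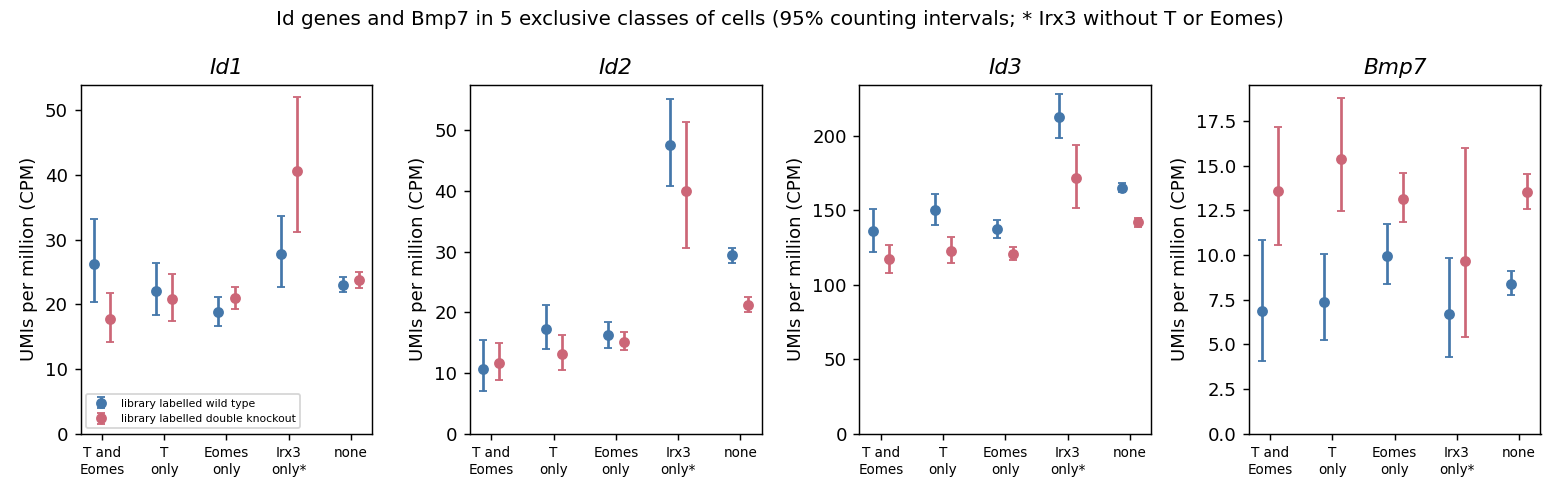
CPM of Id1, Id2, Id3 and Bmp7 (panels with separate linear axes from 0) in 5 exclusive classes of cells by T, Eomes and Irx3, in the wild type-labelled library (blue) and the double knockout-labelled library (red), with exact 95% counting intervals. Id2 and Id3 are highest in the Irx3 class in both libraries, and Bmp7 is higher with the double knockout label in each class.

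The genes whose pattern was most like a member were found over 10 points, the 5 classes in each library, by Pearson's r of log2 levels. These points share libraries and depth, and r describes the shape of that pattern and not its size. Closest to Id2 were Apela (r = 0.990), which encodes the secreted peptide ELABELA, the glucose transporter gene Slc2a1 (0.987) and Ebf1 (0.986), and these spanned 1.85, 1.11 and 1.42 log2 units over the 10 points, against 2.06 for Id2. Closest to Id3 were Sox3 (0.983), Irx5 (0.980) and the BMP co-receptor gene Rgma (0.980), which spanned 2.55, 3.899 and 2.03 log2 units against 0.86 for Id3. For Bmp7, with a range of 1.09, the nearest were Atp5g1 (0.972), Mettl1 (0.967) and Lrrc59 (0.966), with far smaller ranges of 0.17, 0.41 and 0.27. Id1, with a range of 1.16, was most like Agap3 (0.969), Tnfrsf19 (0.959) and Gtf2i (0.954), which spanned 0.73, 0.59 and 0.28.

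The receptors varied least, by 0.29 log2 units for Bmpr1a and 0.37 for Bmpr2. Their nearest genes were Spin1 (0.953), Cers5 (0.942) and Urb1 (0.935), with ranges of 0.38, 0.31 and 0.59, for Bmpr1a, and Slc25a33 (0.939) and Cdk17 (0.927), with ranges of 0.28 and 0.27, for Bmpr2. No gene named here was among the nearest of more than 1 member.

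In single cells, Id2 and Id3 transcripts were found more often where an Id1 transcript was found. After thinning, an Id2 UMI was present in 10.4% (7.76 to 13.6) of 451 cells with an Id1 UMI and in 5.52% (5.04 to 6.04) of 8256 cells without one in the wild type-labelled library. In the double knockout-labelled library these shares were 7.58% (5.52 to 10.1) of 554 and 3.94% (3.56 to 4.34) of 10033 cells. The intervals did not overlap in either library. An Id3 UMI was present in 36.6% (32.1 to 41.2) of cells with Id1 and 30.2% (29.2 to 31.2) of cells without, and in 33.6% (29.6 to 37.7) and 26.9% (26.0 to 27.7) in the double knockout-labelled library. Id2 and Id3 gave 32.8% and 30.4%, and 29.1% and 27.1%, with overlapping intervals in both libraries. Pairs of genes outside the members were not examined, and doublets were not removed. Whether the excess with Id1 is particular to the Id genes was therefore not tested.

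Of the ligands with Id genes, Bmp4 with Id1, Bmp4 with Id3 and Bmp7 with Id1 were examined. An Id1 UMI was in 2 of 61 cells with Bmp4 (3.28%, 0.400 to 11.3) against 5.19% (4.73 to 5.68) of cells without it in the wild type-labelled library, and in 3 of 77 (3.896%, 0.811 to 10.97) against 5.24% (4.82 to 5.69) in the other. With Bmp7 an Id1 UMI was in 6.63% (3.47 to 11.3) against 5.15% (4.69 to 5.64), and in 4.04% (2.17 to 6.80) against 5.27% (4.85 to 5.72). An Id3 UMI was in 27.9% (17.1 to 40.8) of cells with Bmp4 against 30.5% (29.6 to 31.5) without it, and in 27.3% (17.7 to 38.6) against 27.2% (26.4 to 28.1). All these intervals overlap, and a difference was not detectable at this depth. In all, 9 pairs of members were examined.

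The 4 members with few UMIs were described by the cells that held them. Nog was in 31 and 41 cells, of which 74.2% and 78.0% had a T or Eomes UMI among all their UMIs, against 52.6% and 68.0% of all cells. Bmp4 was in 282 and 268 cells, of which 63.5% and 74.6% had one, and Smad6 in 164 and 159 cells, of which 64.6% and 71.1% did. Cells with these genes were deeper, with medians from 11376 to 12744 UMIs in the wild type-labelled library against 10571 for all cells, and from 9169 to 10734 against 8637 in the other. The part of depth in these shares was not tested. Nog, under the level minimum, was at 0.647 CPM in Eomes-positive cells and 0.249 CPM in Eomes-negative cells of the wild type-labelled library (11 and 20 UMIs, log2 ratio 1.40, 0.17 to 2.51), and 0.523 and 0.369 CPM in the other (17 and 24 UMIs, 0.52, -0.48 to 1.46).

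Msx2 was in 97 and 84 cells, of which 50.5% and 71.4% had T or Eomes. Cells marked by at least 3 extraembryonic endoderm genes, 16 in each library, held 6 of the 100 Msx2 UMIs and 3 of the 87 (6% and 3.45%), although they were 0.184% and 0.151% of all cells. Id3 in these cells was at 57.7 CPM (28.8 to 103) and 78.1 CPM (41.6 to 134). The interval in the wild type-labelled library lay below its level in all cells. In the double knockout-labelled library the interval ended almost at that level (133.6 against 133.9 CPM). Bmpr2 in these cells was above its level in all cells, at 84.0 CPM (48.0 to 136) and 72.1 CPM (37.3 to 126). Id1 was at 63.0 CPM (32.6 to 110) and 42.1 CPM (16.9 to 86.7), and Id2 at 47.2 CPM (21.6 to 89.7) and 78.1 CPM (41.6 to 134). Of these, the intervals of Id1 in the wild type-labelled library and of Id2 in the other lie above the level in all cells. Bmp4 and Bmp7 had no UMI in these cells, which shows nothing at this depth, since the upper bounds of 19.4 and 22.2 CPM exceed their levels in all cells. These gates used all UMIs of a cell and were added after the data had been seen.

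A last comparison took up chromosome content, since some cells had a low share of their UMIs on chromosome 11 or chromosome 6 (at most 0.8 times the median cell). On chromosome 11 these were 1537 cells (17.7%) with the wild type label and 616 (5.82%) with the double knockout label, and on chromosome 6 they were 1836 (21.1%) and 1925 (18.2%). Of the members, Nog alone lies on chromosome 11 and none on chromosome 6. Bmp7, on chromosome 2, differed between low and other cells in opposite directions. Cells low on chromosome 11 held it at 6.19 CPM (4.99 to 7.60) and other cells at 8.88 CPM (8.25 to 9.55) in the wild type-labelled library, a log2 ratio of -0.51 (-0.85 to -0.21). In the double knockout-labelled library they held 21.1 CPM (17.2 to 25.7) and 13.1 CPM (12.4 to 13.8), a ratio of 0.70 (0.38 to 0.98).

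Bmp7 was called higher in those cells of the double knockout-labelled library, where 3.22% of genes were. It was under the level minimum in the wild type-labelled library, in which no member was called higher (3.02% of genes), and none was called lower in either library (6.41% and 6.1% of genes). The ratio of Bmp7 between libraries was 1.77 (1.35 to 2.19) in cells low on chromosome 11 and 0.56 (0.43 to 0.69) in the other cells, so the difference between libraries was present in both kinds of cell. Leaving out all cells low on either chromosome gave 0.61. The class genes moved with these cells: T was at 70.8 against 33.0 CPM and 106 against 47.8 CPM in cells low on chromosome 11 and in other cells (ratios 1.10 and 1.15). Irx3 was lower in the low cells (-1.18 and -1.60), and Eomes gave 0.04 and 0.42. In cells low on chromosome 6, T gave 0.91 and 0.02, Eomes 0.04 and 0.08, and Irx3 -0.52 and 0.57. Their part in the values of the members was not tested. In cells low on chromosome 6, Bmp7 was lower in both libraries, at 6.53 against 8.94 CPM and 10.47 against 14.1 CPM (ratios -0.45, -0.74 to -0.17, and -0.43, -0.67 to -0.20).

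Id1 was higher in cells low on chromosome 6, at 28.1 against 21.3 CPM (0.40, 0.25 to 0.54) in the wild type-labelled library and 30.01 against 21.2 CPM (0.50, 0.36 to 0.65) in the other. Id2 was at 31.1 against 26.0 CPM (0.26, 0.13 to 0.39) and 26.7 against 17.2 CPM (0.64, 0.48 to 0.79). Both were called higher in the double knockout-labelled library, where 0.859% of genes were, and no member was in the wild type-labelled library (1.68% of genes). None was called lower in these cells (3.74% and 3.49% of genes). Id1 was also higher in cells low on chromosome 11 of the wild type-labelled library, at 29.4 against 21.4 CPM (0.46, 0.30 to 0.61), with 25.7 against 22.6 CPM (0.19, -0.09 to 0.45) in the other. Id3 differed by at most 0.10 in size in these contrasts. Some other members also had intervals that exclude 0. On chromosome 11 these were Bmpr1a (0.27, 0.15 to 0.39) and Smad6 (0.68, 0.10 to 1.21) with the wild type label. With the double knockout label they were Bmpr2 (0.33, 0.01 to 0.62) and Msx2 (1.53, 0.41 to 2.40). On chromosome 6 it was Bmp4 with the double knockout label (-0.78, -1.40 to -0.25). Smad6, Msx2 and Bmp4 were under the level minimum. The ratio of Id2 between libraries was -0.23 (-0.56 to 0.07) in cells low on chromosome 11 and -0.54 (-0.63 to -0.45) in the other cells. For chromosome 6 it was -0.22 (-0.40 to -0.04) in low and -0.60 (-0.70 to -0.50) in other cells, so both ratios of low cells were short of the threshold. Without any low cells Id2 was at -0.62 and Id3 at -0.27. Bmpr1a between libraries was at -0.49 (-0.76 to -0.23) in cells low on chromosome 11, past the threshold. In the other cells it was at -0.08 (-0.15 to -0.01).

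**Figure D5:**
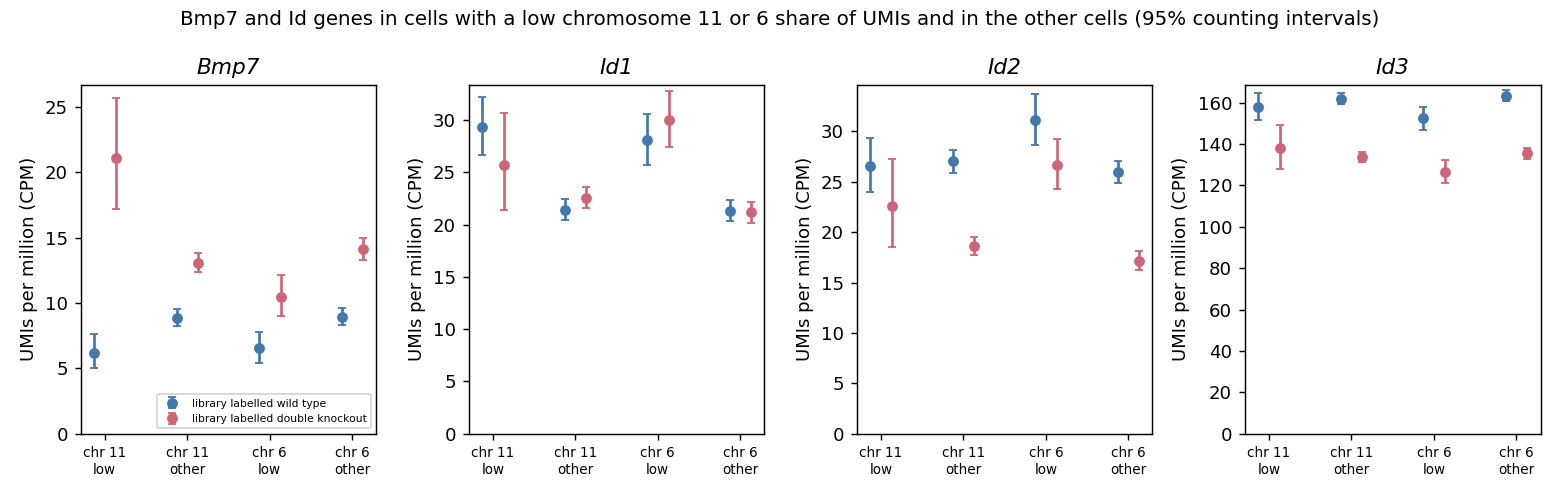
CPM of Bmp7, Id1, Id2 and Id3 (panels with separate linear axes from 0) in cells with a low share of UMIs on chromosome 11 or chromosome 6 and in the other cells, in the wild type-labelled library (blue) and the double knockout-labelled library (red), with exact 95% counting intervals. Bmp7 in cells low on chromosome 11 is at 6.19 and 21.1 CPM, the widest gap between the libraries among the points shown for it.

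The members were placed on GRCm38 by the GENCODE annotation, all as protein-coding genes. Id1 (ENSMUSG00000042745) lies at chr2:152736251-152737410 on the plus strand, and Bmp7 (ENSMUSG00000008999) on the same chromosome at 172868012 to 172940321 on the minus strand. Id2 (ENSMUSG00000020644) lies on chromosome 12 at 25093799 to 25097140, minus strand, and Id3 (ENSMUSG00000007872) on chromosome 4 at 136143497 to 136145755, plus strand. Bmp4 (ENSMUSG00000021835; 46383520 to 46390669) and Bmpr1a (ENSMUSG00000021796; 34410734 to 34503341) are both on the minus strand of chromosome 14, and each overlaps antisense gene models. Bmpr2 (ENSMUSG00000067336) lies on chromosome 1 at 59763400 to 59879014, plus strand, with another model on the same strand. Smad6 (ENSMUSG00000036867) is on chromosome 9 at 63953076 to 64022059, Nog (ENSMUSG00000048616) on chromosome 11 at 89300638 to 89302332, and Msx2 (ENSMUSG00000021469) on chromosome 13 at 53466884 to 53473074, all on the minus strand.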

How the data were processed

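The authors deposited raw UMI counts for every gene in all possible barcodes. Libraries used the 10x 3′ kit, per the labels' protocols, which name Cell Ranger 8.0.1, while the submitters' processing notes name STARsolo, STAR 2.7.9a, Seurat 5.1.0 and the build mm10, with no role for each. The strand handling is not given in the sources used here. The labels give 9238 and 11190 cells with medians of 5333 and 5398 genes. Here 8772 and 10613 barcodes had at least 2500 UMIs, of which 1 and 0 were removed for having under 1000 genes and 64 and 26 for more than 10% mitochondrial UMIs. The medians were 3275 and 2884 genes, and the reason for the gap was not tested.

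Counts were summed per library or class and scaled to CPM, counts per 1000000 UMIs (Python 3.11.15, numpy 2.4.6, scipy 1.17.1). Library totals over all barcodes were 104083993 and 103187025 UMIs. Ratios used a pseudocount of 0.5 UMI. TMM factors for an alternative scaling came from edgeR 4.0.16 in R 4.3.3, with no model fitted. The script was checked on simulated data. Doublets were not removed, and an alternative left out the 5% of cells with the most UMIs. Cells are not replicates, so no test was run.

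The members, gene lists and classes were chosen with earlier results of these data known. All members were named, with the class genes, Sp5 and Sp8. Other pathway genes were named if past the threshold at a mean of at least 10 CPM, or if most abundant in their role. For each member at that level the 3 genes most like it were named, except 1 that is not reported here. Gates on all UMIs of a cell, and the comparison of cells low on chromosome 11 or 6 with other cells, were added after seeing the data. The gates fixed earlier, on 3 or more marker genes after thinning, caught 18 and 18 naive-marked, 5 and 0 neural-marked and 11 and 12 endoderm-marked cells.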

Additional observations from a re-analysis of the deposited data

Results flagged for a closer look

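In all, 150 pairs of ratios, those for the members in different classes or libraries, were searched for opposite signs with both intervals clear of 0. Id1 differed this way between 2 classes of cells: its log2 ratio of the double knockout label over the wild type label was -0.57 in cells with T and Eomes and 0.55 in cells with Irx3 and neither T nor Eomes. The ratio of Bmp7 in cells low on chromosome 11 over other cells was -0.51 in the wild type-labelled library and 0.70 in the double knockout-labelled library. Neither difference was tested, since each genotype has 1 library.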

How the results depend on the processing

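No paired analysis was possible because each genotype has 1 library, and leaving out a replicate was not possible for the same reason. Across the alternatives, 116 counts of called members stayed within 1.5 times the reported count and 14 did not, while 597 ratios of single members stayed within their counting interval and 53 did not. No called ratio changed sign in any of these. Members called lower between libraries went from 2 to 1 (Id2) with TMM scaling, with each cell thinned to 2500 UMIs and with the 5 classes at the same shares in both libraries. In these settings 3.35%, 6.4% and 4.34% of all genes were called lower (4.67% as reported). The median over all genes was -0.02, and 0.01 with TMM scaling. Requiring 2 UMIs of the class gene made 1 member (Bmp7) higher in T-positive cells of the double knockout-labelled library, where 6.47% of genes were then called in either direction (0.474% as reported; the shares that follow are given in the same way). In the wild type-labelled library it made 2 (Id1 and Id2) lower in Eomes-positive cells (2.26%, 0.748% as reported), and 4 (Bmp7, Id1, Id2 and Id3) higher and 1 (Bmpr1a) lower in Irx3-positive cells, of which there were then 34 (24.5%, 2% as reported). Positive cells taken without thinning also gave 2 lower with Eomes (wild type label, 1.27%), and 1 higher with Irx3 (double knockout label, Id2; 1.58%, 5.27% as reported). Without cells low on chromosome 11 or 6, 0 were lower with Eomes (double knockout label, 0.303%, 0.355% as reported), 2 were higher with Irx3 (wild type label, 2.51%) and 1 (Bmp7) was lower with Irx3 (double knockout label, 6.67%). Counting thinned UMIs gave 2 higher with Irx3 (wild type label, 10.1%), and a level minimum of 1 CPM gave 1 (Smad6, with 1 UMI in positive cells) lower with Irx3 (double knockout label, 18.4%). The causes were not tested. Depth limits Nog, Msx2, Smad6 and Bmp4, whose intervals between libraries allow differences past the threshold, and counting intervals say nothing of the variation between cultures.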
